A study of Mus musculus with 6 samples.

Results

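Microglia of the mouse hypothalamus were examined by single-nucleus RNA sequencing (nucSeq). The nuclei were chosen by their own counts of unique molecular identifiers (UMIs), each of which stands for 1 captured RNA molecule. A nucleus was kept if it held at least 1000 UMIs, at least 3 UMIs in the sum of *Csf1r*, *Cx3cr1*, *Inpp5d*, *Apbb1ip* and *P2ry12*, at most 2 in the sum of the neuronal genes *Snap25*, *Syt1* and *Rbfox3*, and fewer than 3 in the sum of the oligodendrocyte genes *Mog*, *Mag*, *Ermn* and *Mobp* and in that of the astrocyte genes *Aqp4*, *Agt*, *Gjb6* and *Ntsr2*. This rule selected 296 of the 39665 nuclei with at least 1000 UMIs (0.746%), and 288 further barcodes were below that minimum. Because the rule uses measured values, the levels of its 16 genes, and the contrast of microglia with other nuclei, are given as descriptions with no test.

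The tissue came from 18 male C57Bl/6 WT mice aged 6 to 8 weeks, 12 of them fed ad libitum (fed) and 6 fasted for 16 h. Hypothalami were pooled in groups of 6, so that the fed mice made up 2 pools, whose nuclei were prepared on different days, and the fasted mice 1 pool, and each pool filled 2 tubes that gave a droplet library each. The sources used here do not say which of the 4 fed libraries share a pool. The 2 fasted libraries come from the same 6 mice, so the difference between them is technical and the fasted condition has 1 biological sample.

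Microglia are the resident macrophages of the brain parenchyma. They descend from yolk sac progenitors, depend on signalling through the CSF1 receptor and on the transcription factor PU.1, survey the tissue with motile processes guided by the purinergic receptor P2Y12 and the fractalkine receptor CX3CR1, and remove debris and synaptic material that is tagged by complement. In the mediobasal hypothalamus they are known to respond to diet and to inflammatory signals. A different macrophage population, the border macrophages of the meninges, perivascular spaces and choroid plexus, shares the CSF1 receptor and much of this programme but expresses *Mrc1*, *F13a1* and *Cd163*.

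Depth and RNA content set fed libraries 3 and 4 apart from the other 4 libraries. The median passing nucleus held 4431, 4529, 8743 and 8831.5 UMIs in fed libraries 1 to 4 and 5982 and 5954 in fasted libraries 1 and 2. Ribosomal protein genes took 0.383%, 0.397%, 1.89% and 1.92% of all UMIs in the fed libraries, but 0.240% and 0.239% in the fasted libraries. Pairs of libraries shared between 5 and 17 barcodes, at most 0.283% of a library, and no 2 microglial nuclei carried the same barcode. No doublet caller was run, and the limits on neuronal, oligodendrocyte and astrocyte UMIs were the only guard against mixed nuclei.

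Fed libraries 1 to 4 gave 13, 16, 0 and 3 microglial nuclei and the fasted libraries 144 and 120. Of all microglial nuclei, 89.2% were thus fasted, against 29.9% of all passing nuclei. The microglia held 16525, 21992, 0 and 7487 UMIs in the fed libraries, against 230772 and 205910 in the fasted libraries. A single microglial nucleus had a median of 1222, 1373.5 and 2597 UMIs in fed libraries 1, 2 and 4, and of 1563.5 and 1590 in the fasted libraries. Every statement on fed microglia below therefore rests on 32 nuclei and 46004 UMIs, and 29 of these nuclei are from libraries 1 and 2.

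The selected nuclei carried the markers of microglia. *Ly86* (MD-1, a partner of the innate immune receptor RP105, at chr13:37345208-37419036 on the plus strand of GRCm38 in the GENCODE annotation, from which all gene positions here are taken), which the rule did not use, had a UMI in 8 of 13, 14 of 16 and 3 of 3 nuclei of fed libraries 1, 2 and 4 and in 120 of 144 and 96 of 120 nuclei of the fasted libraries. Over all microglial nuclei its share was 81.4%, against 0.217% of oligodendrocyte-like, 0.331% of astrocyte-like and 0.659% of neuronal nuclei, where a neuronal nucleus is one with more than 2 UMIs of the neuronal genes. Median depth was 1722 to 5308 UMIs in the oligodendrocyte-like nuclei of a library, deeper than in the microglia of the same library. Summed over microglia, *Ly86* stood at 1694, 2001 and 2271 counts per 1000000 microglial UMIs (CPM) in the fed libraries, against 1621 and 1462 CPM in the fasted libraries.

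Each of the 5 genes that the rule sums had a UMI in most microglial nuclei. *Inpp5d* (SHIP1, a phosphatase that restrains PI3K signalling in blood-derived cells) was found in 93.6% of them, *Apbb1ip* (RIAM, an adaptor of integrin activation) in 83.1%, *P2ry12* (an ADP receptor) in 80.1%, *Csf1r* (the CSF1 receptor) in 72.3% and *Cx3cr1* (the fractalkine receptor) in 69.3%. In oligodendrocyte-like nuclei the shares ran from 0.434% for *Csf1r* to 7.08% for *Apbb1ip*. These nuclei were chosen with fewer than 3 UMIs in this same sum, so their low shares are in part set by the selection. *Inpp5d* stood at 1331, 2046 and 401 CPM in the fed libraries, against 2318 and 2671 CPM in the fasted libraries, and *P2ry12* at 2421, 1364 and 935 CPM against 1044 and 1127 CPM. *Csf1r* varied less, with 908, 637 and 1202 CPM in the fed libraries, against 854 and 962 CPM in the fasted libraries. Near the threshold, 10 microglial nuclei had exactly 3 marker UMIs, and 49 nuclei that met the other limits had 2. Of the former, 4 had a *Ly86* UMI, and of the latter 5, so most nuclei on either side of the threshold lacked this marker. The median number of marker UMIs was 8, 9 and 10 in fed libraries 1, 2 and 4 and 10 and 13 in the fasted libraries.

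The 300 bases from 250 before to 50 after the RefSeq start site are shown for 3 of the marker genes, to make visible the purine-rich core that PU.1 (*Spi1*) is known to bind. Capitals mark GAGGAA on either strand, TTCCTC being the opposite strand.
Inpp5d promoter, GRCm38.p6, chr1:87620062-87620361, plus strand: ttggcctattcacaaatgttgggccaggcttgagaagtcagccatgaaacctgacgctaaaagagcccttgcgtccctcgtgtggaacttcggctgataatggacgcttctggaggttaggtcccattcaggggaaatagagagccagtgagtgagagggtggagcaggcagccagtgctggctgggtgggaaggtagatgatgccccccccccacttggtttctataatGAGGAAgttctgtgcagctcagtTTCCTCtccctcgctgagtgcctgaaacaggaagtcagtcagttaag
Ly86 promoter, GRCm38.p6, chr13:37345095-37345394, plus strand: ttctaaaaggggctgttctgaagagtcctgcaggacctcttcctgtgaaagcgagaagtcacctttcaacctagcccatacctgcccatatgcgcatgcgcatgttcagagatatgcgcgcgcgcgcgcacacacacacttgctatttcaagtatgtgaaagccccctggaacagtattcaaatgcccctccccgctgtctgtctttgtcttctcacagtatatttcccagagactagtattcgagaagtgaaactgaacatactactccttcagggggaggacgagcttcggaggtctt
P2ry12 promoter, GRCm38.p6, chr3:59262936-59263235, minus strand: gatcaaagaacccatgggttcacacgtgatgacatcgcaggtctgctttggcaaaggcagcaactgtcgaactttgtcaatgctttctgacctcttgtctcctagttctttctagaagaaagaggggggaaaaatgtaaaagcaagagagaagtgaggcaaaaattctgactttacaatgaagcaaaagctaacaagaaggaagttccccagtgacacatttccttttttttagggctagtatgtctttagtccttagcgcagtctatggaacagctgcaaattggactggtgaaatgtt

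The letters GAGGAA, searched on both strands, are in the *Inpp5d* window on the strand of the gene, from 20 bases before the start site, where they form the longer GAGGAAGT, and on the opposite strand at base 4 after the start. The windows of *Ly86*, *P2ry12*, *Cx3cr1* and *Tmem273* hold neither. GAGGAA is in 28.3% and GAGGAAGT, which contains it, in 3.202% of the 32851 promoters of the table. Of the 15 windows that the table holds for 13 of the 20 genes with the largest microglial ratio, described next, 11 hold GAGGAA and 5 hold GAGGAAGT. Of 16 windows of homeostatic genes 8 hold GAGGAA and 1 holds GAGGAAGT, of 16 windows of complement, phagocytosis and Fc receptor genes 11 and 2, and of 7 windows of oligodendrocyte marker genes none holds either. These are matches of letters in a window and say nothing of binding in these nuclei.

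**Figure D1:**
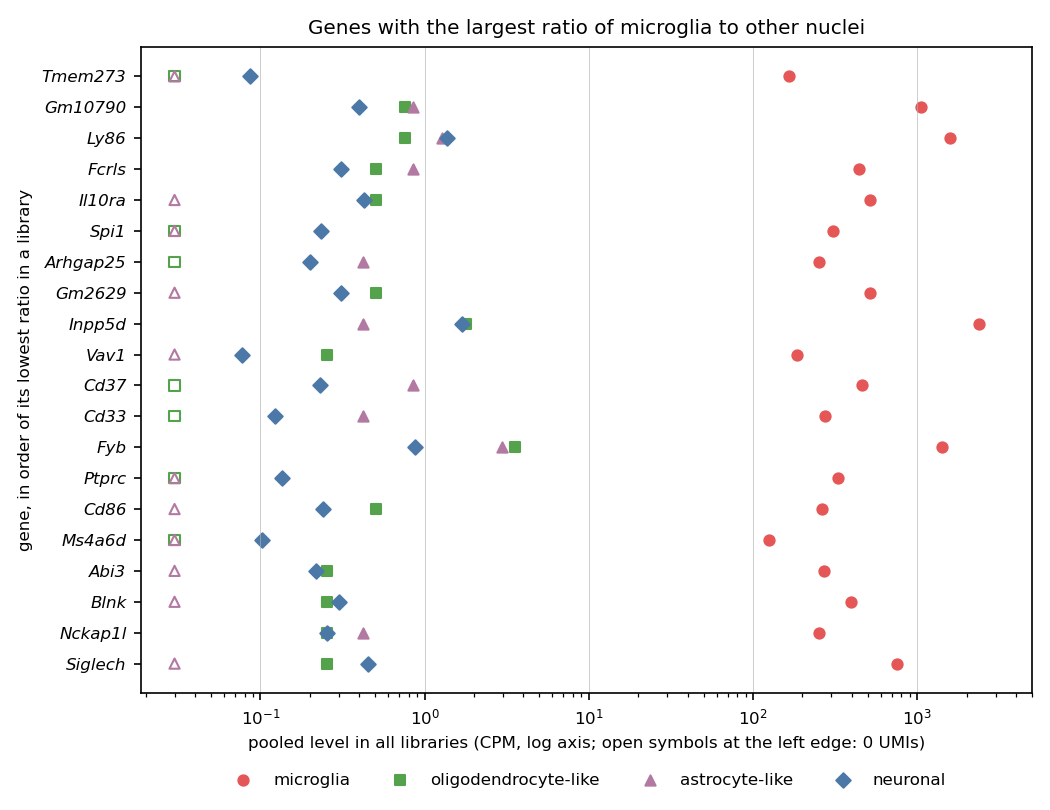
The 20 genes with the largest ratio of microglia to all other passing nuclei, with their pooled level in CPM (log axis) in microglia, oligodendrocyte-like, astrocyte-like and neuronal nuclei, and open symbols at the left edge for 0 UMIs. Every gene stands above 100 CPM in microglia and below 4 CPM in each other class.

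Genes were ranked by the lowest of their per-library ratios of microglial CPM to the CPM of all other passing nuclei, and 1126 genes with at least 50 microglial UMIs and one in each of the 5 libraries with microglia could be ranked. First were *Tmem273*, with ratios of 858 to 7999 over the libraries, the unnamed transcript *Gm10790* with 785 to 10285, and *Ly86* with 733 to 3146. Among the 20 leading genes, several of them uncharacterised, were the transcription factor *Spi1* (PU.1), the pan-leukocyte phosphatase *Ptprc* (CD45), the immune signalling genes *Vav1*, *Blnk*, *Fyb* and *Nckap1l*, the interleukin 10 receptor chain *Il10ra*, the sialic acid receptors *Cd33* and *Siglech*, the costimulatory ligand *Cd86* and the Fc receptor-like *Fcrls*. Of the 20, *Inpp5d* is in the rule, and 2, *Fcrls* and *Siglech*, are in the list of homeostatic microglial genes. *Ptprc* had 24 UMIs in fed and 136 in fasted microglia, and 0 in oligodendrocyte-like and in astrocyte-like nuclei.

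Most of the genes known to define microglia in the healthy brain were far above their level in other nuclei. Of 15 homeostatic genes outside the rule, 13 had a higher CPM in microglia than in the oligodendrocyte-like, astrocyte-like and neuronal nuclei alike, and *Sparc* and *Cst3* did not. *Tmem119* was sparse, with 8 UMIs in fed and 59 in fasted microglia. All 10 lineage transcription factors were higher in microglia than in the other classes, led by *Maf* with 432 UMIs, and *Spi1* and *Irf8* had no UMI in oligodendrocyte-like or astrocyte-like nuclei. Of the 17 complement, phagocytosis and Fc receptor genes with 10 or more microglial UMIs 16 were higher in microglia than in all 3 classes, *Axl* being the exception, and the largest number of UMIs was that of *Mertk* (a receptor for dying cells) with 785.

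Genes of activated microglia ranged widely in abundance. Of the disease-associated list *Apoe* had 457 UMIs, *Cd74* 319, *Cd9* 77 and *Timp2* 30, and 7 of the 14 members had 10 or more. Fed library 4 held 230 of the *Cd74* UMIs, all in 1 nucleus, and 213 of the *Apoe* UMIs, 197 of them in 1 nucleus. Without it *Cd74* had 89 UMIs and *Apoe* 244, or 187 and 513 CPM. *Cd74* was found in 16 of the 296 nuclei. Of the 7 members with 10 or more UMIs, 3 were higher in microglia than in the other 3 classes, and *Apoe*, *Cd9*, *Timp2* and *Axl* were not, *Apoe* standing at 947 CPM in microglia and 2788 CPM in astrocyte-like nuclei. *Spp1* and *Gpnmb* had no UMI in 482686 microglial UMIs, and *Cst7*, *Itgax* and *Lpl* had 1 each and *Clec7a* had 4. Of the inflammatory list 10 of 18 members had 10 or more UMIs, led by *Nfkb1* with 190 and *Ptgs1* with 121. Of its cytokines, *Il1a* had 11 UMIs in 11 nuclei, *Ccl4* 7, *Il1b* 5 in 1 nucleus, *Tnf* and *Ccl3* 3 each, *Ccl2* 1 and *Cxcl10* 0. Of 10 cell division genes 5 had a UMI, at most 3 per gene, and no nucleus had 2 or more UMIs of that list. At a depth of 1548.5 UMIs in the median nucleus, these counts limit what could have been seen in a single nucleus.

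Markers of other cell types were low but not absent. The 10 oligodendrocyte markers outside the rule summed to 182, 91 and 134 CPM in the fed and 230 and 214 CPM in the fasted libraries, where oligodendrocyte-like nuclei had 13912 CPM. The 12 neuronal markers summed to 3449, 2637 and 2671 CPM and to 2799 and 2817 CPM, with 22601 CPM in neuronal nuclei. *Meg3* made up 618 of these UMIs and was at a like level in oligodendrocyte-like (920 CPM) and astrocyte-like nuclei (1024 CPM). Transcripts of 12 neuropeptide genes, best known from hypothalamic neurons, reached 605, 728 and 935 CPM in fed and 186 and 146 CPM in fasted microglia. The defining lymphocyte genes *Cd3e*, *Cd3d*, *Cd79a* and *Ms4a1*, the neutrophil genes *S100a8* and *S100a9* and the monocyte gene *Ly6c2* were at 0 in all libraries, and the lymphocyte list had 10 UMIs in all. *Csf3r*, a receptor of neutrophils that microglia also express, had 230 of the UMIs of the monocyte and neutrophil list, which summed to 666, 364 and 267 CPM in the fed and 598 and 461 CPM in the fasted libraries. Endothelial and mural markers summed to 22 CPM in fed and 62 CPM in fasted microglia, with *Rgs5*, *Kcnj8* and *Abcc9* at 0. Astrocyte markers summed to 326 and 550 CPM, markers of oligodendrocyte precursors to 0 and 131 CPM, and those of tanycytes and ependymal cells to 65 and 66 CPM. The last 3 lists were unequal between the fasted tubes, with 425 and 690, 56 and 214, and 9 and 131 CPM.

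**Figure D2:**
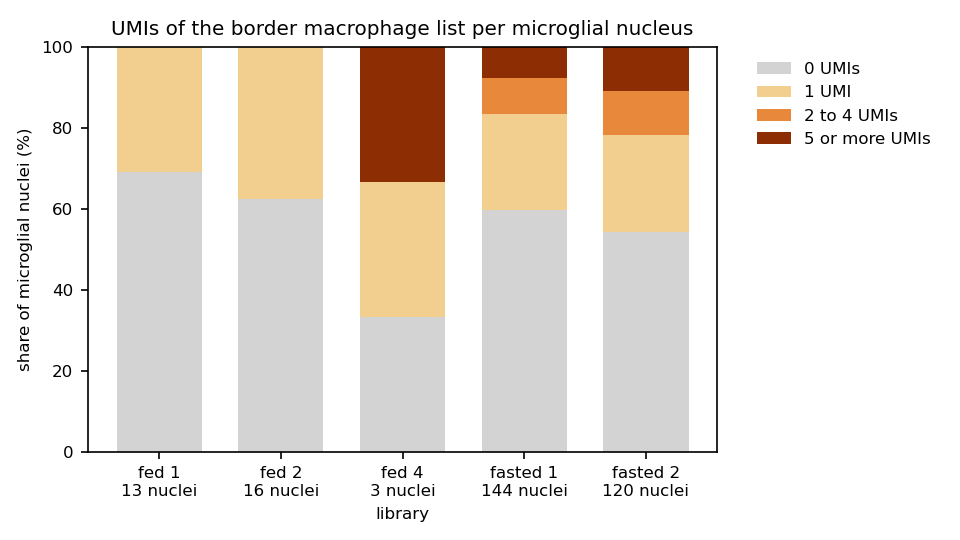
Microglial nuclei of each library by their number of UMIs of 10 border macrophage genes, as a share of the nuclei (%), with the number of nuclei under each bar. Nuclei with 2 or more UMIs are found in both fasted libraries and in fed library 4, and the latter has only 3 nuclei.

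A minority of the selected nuclei carried transcripts of border macrophages. Over all libraries 171 nuclei had no UMI of the 10 genes of that list, 74 had 1, 51 had 2 or more and 25 had 5 or more. The nuclei with 2 or more were 24 of 144 (16.7%, 95% exact binomial interval 11.0 to 23.8%) and 26 of 120 (21.7%, 14.7 to 30.1%) in the fasted libraries. Fed libraries 1 and 2 had 0 of 13 (0 to 24.7%) and 0 of 16 (0 to 20.6%), so the fed and fasted intervals overlap. Binomial intervals here and below cover counting error only. The summed list stood at 242, 273 and 2671 CPM in the fed libraries, against 1075 and 1457 CPM in the fasted ones. Over all libraries *Stab1* had the most UMIs of the list, 191. Oligodendrocyte-like, astrocyte-like and neuronal nuclei had 4.3, 6.8 and 4.2 CPM of the list.

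Fasted nuclei with 5 or more UMIs of the list differed from those with none in microglial genes outside the rule as well. All of them come from the same pool of mice, so the values are descriptions with no test. The 24 nuclei of the first kind, 11 and 13 from the 2 libraries, had a median of 1648 UMIs and the 151 of the second kind 1508. *Ly86*, which the rule did not use, stood at 885 CPM in the former and 1701 CPM in the latter. Among genes that the rule sums, and that helped to select both kinds, *P2ry12* stood at 453 and 1195 CPM and *Apbb1ip* at 345 and 1623 CPM. *Csf1r*, also in that sum, was closer, at 647 and 925 CPM. The homeostatic list summed to 3345 and 10906 CPM. Since the first kind was chosen by the macrophage list, *Mrc1*, *F13a1* and *Cd163* at 2331, 3453 and 691 CPM are no finding. The rule does not separate border macrophages, which also express *Csf1r* and *Cx3cr1*, so these nuclei count among the 296. Of the 24 nuclei 83.3% had a UMI of *Inpp5d* and 75% one of *Ly86*, against 95.4% and 82.1% of the 151. The identity of the 24 was not tested.

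The 3 nuclei of fed library 4 were unlike each other. The first held 230 UMIs of *Cd74* (the invariant chain of MHC class II) among 2597, with no UMI of *P2ry12* or *Siglech*. The second had no *Cd74* or *Apoe* UMI and held 6 of *P2ry12* and 8 of *Ly86* among 2240. The third held 197 UMIs of *Apoe* (the main lipid carrier of the brain) and 17 of *Ms4a7* among 2650, and 19 UMIs of the macrophage list. These values were looked up after the totals of library 4 had been seen, and the fed levels of *Cd74* and *Apoe* given below rest wholly or largely on a single nucleus.

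**Figure D3:**
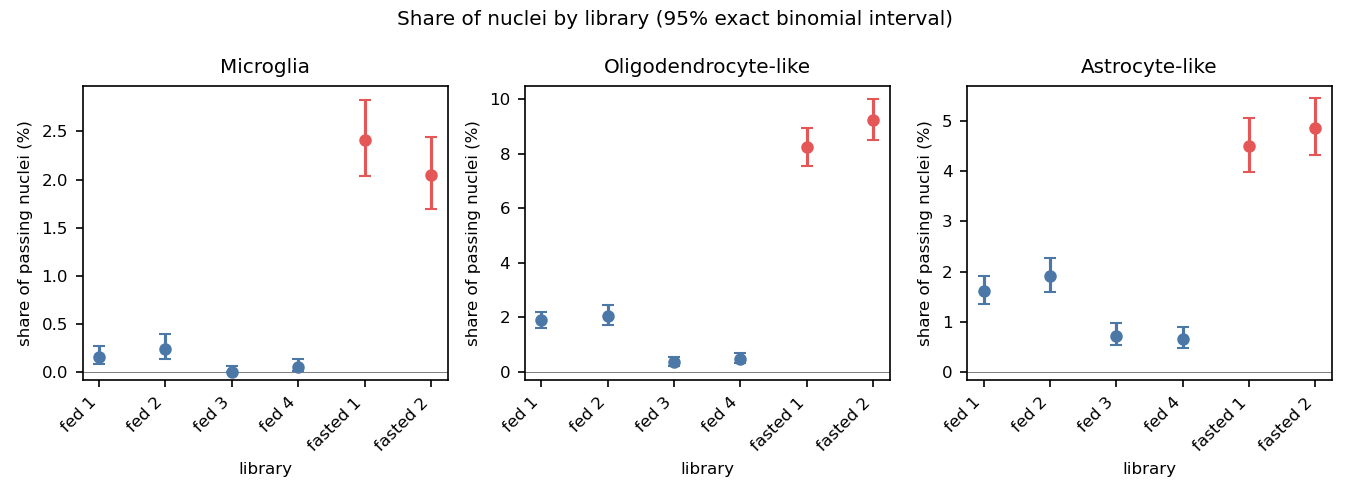
Share of passing nuclei (%) that met the rule for microglia and the mirrored rules for oligodendrocyte-like and astrocyte-like nuclei, by library, with 95% exact binomial intervals. In all 3 classes both fasted libraries lie above all fed ones, and fed libraries 3 and 4 lie below libraries 1 and 2.

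Microglia made up a larger share of the nuclei in the fasted libraries. The share was 0.154% (95% exact binomial interval 0.0821 to 0.263%), 0.241% (0.138 to 0.391%) and 0.0470% (0.00970 to 0.137%) in fed libraries 1, 2 and 4. In library 3 it was 0 of 6360 nuclei, which allows a share of up to 0.0472% by the limit of 3 counts and 0.0580% by the exact interval. The fasted libraries had 2.41% (2.04 to 2.83%) and 2.04% (1.70 to 2.44%). The means were 0.110% ± 0.108 (SD, n = 4) and 2.23% ± 0.260 (SD, n = 2), a ratio of 20.2, and the lower fasted share was 8.48 times the highest fed one. The two-sided exact permutation test over libraries gave p = 0.133, the smallest that 4 libraries against 2 can give, so the design cannot reach 0.05, and it counts libraries of a pool as separate samples. A larger number of microglia in the tissue and a better recovery of their nuclei cannot be told apart.

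The ratio kept its direction and changed in size with the denominator and the libraries. Among nuclei with at most 2 neuronal UMIs, microglia made up 1.01%, 1.41%, 0% and 1.69% in the fed libraries, against 8.67% and 7.15% in the fasted ones, a ratio of 7.71. With only fed libraries 1 and 2, an alternative chosen after seeing the data, it was 11.3. A minimum of 2 marker UMIs gave 10.5, and leaving out fed library 2 gave 33.2. After each nucleus was thinned to 1000 UMIs before the rule was applied, it was 20.5.

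The other glial classes moved with the same libraries. Oligodendrocyte-like nuclei, chosen by the mirrored rule with at least 3 UMIs of the oligodendrocyte genes, were 1.88%, 2.06%, 0.362% and 0.486% of the fed and 8.24% and 9.23% of the fasted nuclei, a ratio of 7.29. Astrocyte-like nuclei were 1.61%, 1.91%, 0.723% and 0.659%, against 4.503% and 4.87%, a ratio of 3.82. For every 100 oligodendrocyte-like nuclei there were 8.18, 11.7, 0 and 9.68 microglia in the fed libraries, against 29.3 and 22.1 in the fasted ones, a ratio of 3.48 (exact permutation p = 0.133, again the smallest possible). For every 100 astrocyte-like nuclei there were 9.56, 12.6, 0 and 7.14, against 53.5 and 42.0, a ratio of 6.52 (exact permutation p = 0.133). With only fed libraries 1 and 2 these ratios were 2.59 and 4.31. The part of the sort, the preparation day and the fast in these shares cannot be told apart with 1 fasted pool.

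Gene expression of fasted and fed microglia was compared by edgeR's quasi-likelihood test on counts summed per pool, 2 fed pools against 1 fasted pool. As the pooling of the fed libraries is not known, all 3 pairings were fitted, each gene was given its largest p of the 3, and these were adjusted by the Benjamini-Hochberg method. Of 4091 genes tested, 0 passed an adjusted p of 0.05 (0%). The lowest adjusted p was 0.999, 1 gene had an unadjusted p under 0.05 (the mitochondrial *mt-Rnr2*, given below), and DESeq2 called 0. The median tested gene had 5 UMIs in all fed microglia and 46 in fasted microglia, 186 tested genes had none in fed microglia, and 4086 passed the filter on low counts through both fasted libraries. On counts simulated at these depths, this test recovered 1.45% of 69 genes changed 4-fold and 74.5% of 47 genes changed 16-fold. These are only the changed genes that passed the filter, and even of them most 4-fold changes were missed. The simulation used the same spread for every gene and held no single nuclei with extreme counts, so recovery in these data may be lower. Both fasted libraries lay above every fed library with microglia for 22% of the tested genes and below for 4.5%, and 63.5% had a log2FC (log2 of fasted over ad libitum fed) above 0, with a median of 0.19. The fasted tubes differed little from each other. Over 755 genes with at least 100 UMIs the median difference between them was 0.18 on the log2 scale.

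**Figure D4:**
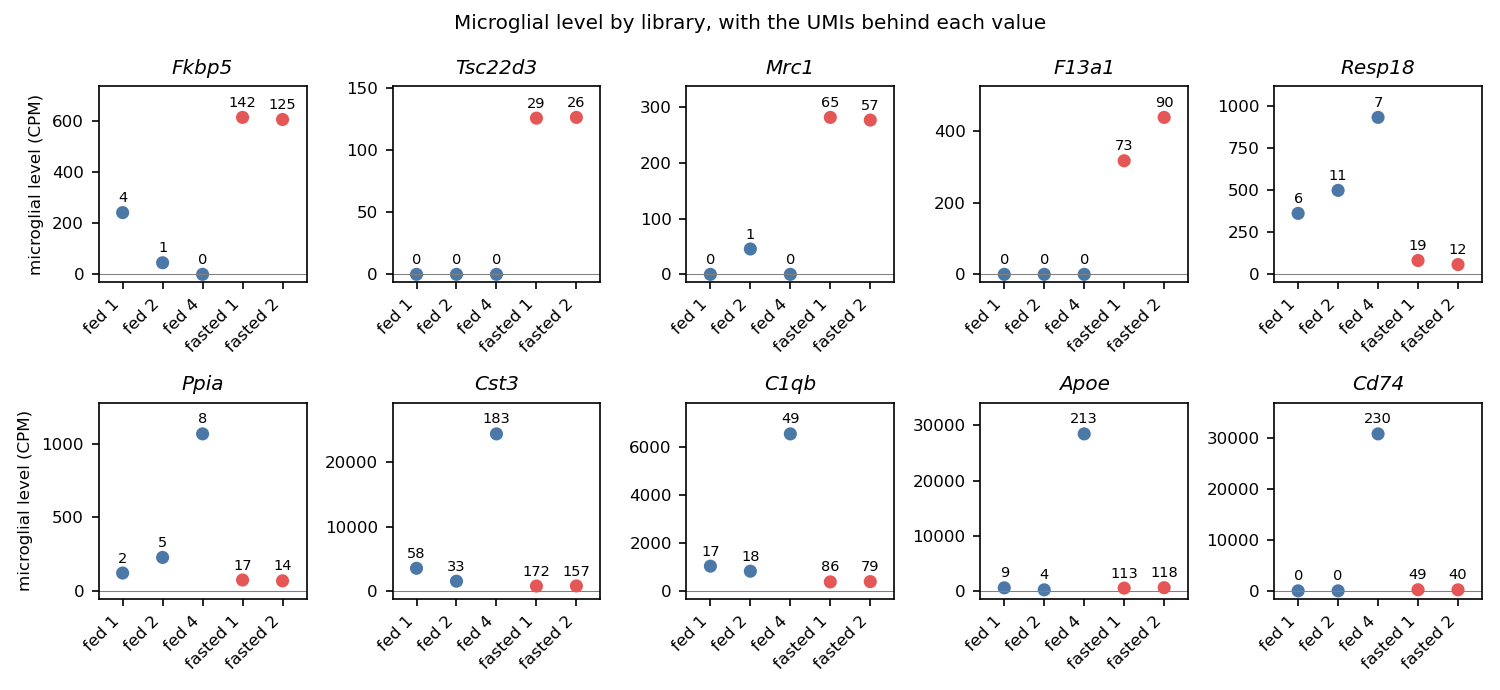
Microglial level (CPM) of 10 genes in each library that held microglia, with the UMIs behind each value above the point. *Fkbp5*, *Tsc22d3*, *Mrc1* and *F13a1* lie higher in the fasted libraries than in the fed ones, *Resp18*, *Ppia*, *Cst3* and *C1qb* lie lower, and *Apoe* and *Cd74* are high in fed library 4 alone.

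The genes named next have the smallest p among those whose groups do not overlap, with ribosomal protein and mitochondrial genes kept apart as groups, and *Tsc22d3* is added from the glucocorticoid list, and none of them passed the adjusted threshold in edgeR. *Fkbp5* (chr17:28399094-28517527, minus strand, a co-chaperone that glucocorticoids are known to induce) had 4, 1 and 0 UMIs in fed libraries 1, 2 and 4 and 142 and 125 in the fasted libraries. This is 242, 45.5 and 0 CPM against 615 and 607 CPM, and both fasted values lay above all fed ones. Its log2FC was 2.41 (standard error 0.69, edgeR adjusted p = 0.999), and 4.29 without fed library 1, which held 4 of the 5 fed UMIs. The UMIs came from 159 of 264 fasted (60.2%) and 2 of 32 fed nuclei, and when each nucleus was thinned to 1000 UMIs the shares were 45.8% and 6.25%. Without the nuclei that carried 2 or more macrophage or lymphocyte UMIs, its log2FC was 2.51. *Tsc22d3* (GILZ, another glucocorticoid-induced gene, chrX:140539528-140600659, minus strand) had 0 UMIs in fed microglia and 29 and 26 in the fasted libraries, or 126 CPM in each. Against a floor of 3 UMIs over all fed microglia, which is 65.2 CPM, it was at least 1.93-fold higher.

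In the other glial classes, too, the fasted values of *Fkbp5* lay above all fed ones. In oligodendrocyte-like nuclei it stood at 8.50, 17.7, 16.1 and 23.5 CPM in the fed libraries, against 134.6 and 117.8 CPM in the fasted ones, a log2FC of 2.87 (standard error 0.67). In astrocyte-like nuclei it stood at 6.87, 6.91, 22.6 and 43.3 CPM and at 81.5 and 67.3 CPM, a log2FC of 1.84 (standard error 0.87). The difference of its log2FC between microglia and oligodendrocyte-like nuclei was -0.42 (standard error 1.24, edgeR adjusted p = 1), and that to astrocyte-like nuclei 0.19 (standard error 1.42, edgeR adjusted p = 0.9999). The intervals these errors give span several fold in both directions, and the classes share their libraries. Across all genes, the test of a difference in fasting response called 0 of 3628 genes against oligodendrocyte-like nuclei (0%) and 0 of 3595 against astrocyte-like nuclei (0%), with 27 and 20 at an unadjusted p under 0.05. Within these classes the fasting test itself called 0 of 9982 and 0 of 8631 genes. *Clta* (a clathrin light chain) had the smallest p against oligodendrocyte-like nuclei, with a difference of 2.52 (standard error 1.16, edgeR adjusted p = 1). *Grb2* (an adaptor of growth factor receptors) had it against astrocyte-like nuclei, with 3.06 (standard error 1.22, edgeR adjusted p = 0.9999).

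Macrophage genes were among those higher in the fasted libraries. Of the 10 on the list 4 were tested, and *Mrc1*, *F13a1* and *Stab1* lay above all fed values, as 22% of all tested genes did. The fourth, *Ms4a7*, had 0, 0 and 17 UMIs in the fed libraries, the 17 in a single nucleus, against 17 and 8 in the fasted ones, a log2FC of -2.75. The median was 2.38, or 1.86 with *F13a1* set against the floor of 3 fed UMIs, and 3.42 over 3 genes without fed library 4. *Mrc1* (the mannose receptor CD206, chr2:14229392-14332057, plus strand) had 0, 1 and 0 UMIs in the fed libraries, against 65 and 57 in the fasted ones, or 0, 45.5 and 0 CPM against 282 and 277 CPM. The UMIs came from 29 of 264 fasted (11.0%, 95% exact binomial interval 7.48 to 15.4%) and 1 of 32 fed nuclei (3.12%, 0.0791 to 16.2%), about 4.21 per fasted nucleus that had any, and these intervals overlap. *F13a1* (coagulation factor XIII subunit A, chr13:36867178-37050244, minus strand) had 0 UMIs in fed microglia and 73 and 90 in the fasted libraries, about 6.27 in each of 26 of 264 fasted nuclei (9.85%, 6.53 to 14.1%). No fed nucleus of 32 had one, which allows a share of up to 10.9% by the exact interval, so a difference in nuclei was not detectable at this number. As UMIs of a nucleus are not independent, no separate fold is given for *Mrc1* or *F13a1*. The medians of the macrophage list above include the log2FCs of both genes and share this limit. In the 151 fasted nuclei with no UMI of the macrophage list both are at 0 by construction. *Trpm3*, a cation channel with 7020 CPM in astrocyte-like nuclei, had 1 fed UMI and 16 and 80 fasted ones from 27 nuclei, and the fasted tubes themselves differed for it. *Lifr* (the receptor of leukaemia inhibitory factor) had 0, 0 and 1 UMIs against 52 and 48, a ratio of 10.5 (95% exact counting interval 1.85 to 420). *Clta* had 1, 2 and 0 UMIs against 71 and 74, a ratio of 5.09 (1.71 to 25.0), and *Grb2* 1, 2 and 0 against 80 and 62, a ratio of 4.99 (1.67 to 24.5). Counting intervals here and below take each UMI as independent and leave out the spread between pools. They are therefore no test of the fast. *E230001N04Rik*, *Dhx36* and *Ppwd1* had no fed UMI and 70, 67 and 59 fasted ones, at least 2.46-fold, 2.35-fold and 2.07-fold above the floor.

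Both fasted libraries lay below all fed ones for the following genes. *Resp18* (chr1:75272199-75278415, minus strand), a secretory granule protein of neuroendocrine cells, had 6, 11 and 7 UMIs in the fed libraries, against 19 and 12 in the fasted ones, or 363, 500 and 935 CPM against 82.3 and 58.3 CPM. Its level was 802 CPM in neuronal nuclei and 85.2 CPM in oligodendrocyte-like ones. The log2FC was -3.02 (standard error 1.62, edgeR adjusted p = 0.999). The summed neuropeptide transcripts given above were higher in the fed libraries too, while the 12 neuronal markers were at a like level, 2935 CPM in fed and 2808 CPM in fasted microglia, and the part of neuronal RNA in this and the following differences was not tested. *Ppia* (cyclophilin A) had 121, 227 and 1069 CPM against 73.7 and 68.0 CPM, with a log2FC of -2.26 (standard error 0.58, edgeR adjusted p = 0.999), and -1.31 without library 4. *Oaz1*, *Bsg*, *Atp6v0c*, *Fth1*, *Atp5pb*, *G3bp2* and *B4galt4* had log2FCs between -2.52 and -1.84, and between -2.08 and -0.90 without library 4, the last that of *Fth1*, whose fed level was 609 CPM with that library and 338 CPM without it. Pooled over all libraries, whose microglial UMIs are mostly fasted, *Ppia* and these genes except *B4galt4* had a higher CPM in neuronal nuclei than in microglia. Examples are *Atp6v0c* with 902 against 160 CPM and *Bsg* with 408 against 80.8 CPM. In fed microglia alone *Oaz1*, *Fth1*, *Atp5pb* and *G3bp2* stood above their neuronal level, at 348, 609, 196 and 239 CPM. Their neuronal levels were 213, 443, 125 and 95.3 CPM. Without library 4 *Fth1*, at 338 CPM, stood below its neuronal level, while *Oaz1*, *Atp5pb* and *G3bp2* stayed above theirs. *Ppia*, *Bsg* and *Atp6v0c* stood below theirs, at 326, 283 and 565 CPM in fed microglia. *Olfml3*, a homeostatic microglial gene, had a log2FC of -1.91 on 10 fed and 25 fasted UMIs. Of 28 tested ribosomal protein genes 7 lay lower in both fasted libraries, where 4.5% of all tested genes did, and the median log2FC of the 28 was -1.47, or -0.30 over the 27 that were tested without library 4. The ribosomal share of microglial UMIs was 0.635%, 0.641% and 4.37% in the fed libraries, against 0.398% and 0.374% in the fasted ones. The 4.37% of library 4 comes from nuclei with 8.51%, 2.14% and 2.42%. *mt-Rnr2*, a mitochondrial ribosomal RNA, had 666, 500.2 and 1069 CPM against 43.3 and 97.1 CPM, a log2FC of -3.35 (standard error 1.68, edgeR adjusted p = 0.999), and was the only mitochondrial gene tested. Mitochondrial genes took 0.0662%, 0.0654%, 0.211% and 0.215% of the UMIs of all nuclei in fed libraries 1 to 4 and 0.0178% and 0.0180% in the fasted ones, and the part of this difference between whole libraries in the microglial values was not tested.

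Other ways to form the fed samples gave calls. With libraries 1 and 3 as a pool and 2 and 4 as the other, where library 3 adds no nucleus, 33 genes were called, with the libraries as separate samples 32, with the replicate number as a block 22, and without fed library 4 19. All 4 fits called *F13a1*, *Fkbp5* and *Rnf169* as higher and *Cst3*, *C1qb*, *Resp18*, *Tecr*, *mt-Rnr2*, *CT010467.1*, *Gm35188* and *Gm46367* as lower. The log2FC of *C1qb* ranged from -2.43 to -1.23 over these fits, that of *Cst3* from -3.39 to -1.64, that of *Fkbp5* from 2.23 to 2.55 and that of *Rnf169*, a ubiquitin ligase, from 2.14 to 2.30. These fits use the same nuclei and take tubes as samples or leave a fed pool of 1 tube, so their shared calls are not independent, and on simulated counts with libraries as samples 2.67% of unchanged genes were called. The genes were chosen for description after their values had been seen. The pairing of library 1 with 2 and of 3 with 4, each alike in depth and ribosomal share, called no gene. In that pairing 1 fed pool consists of the 3 nuclei of library 4.

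**Figure D5:**
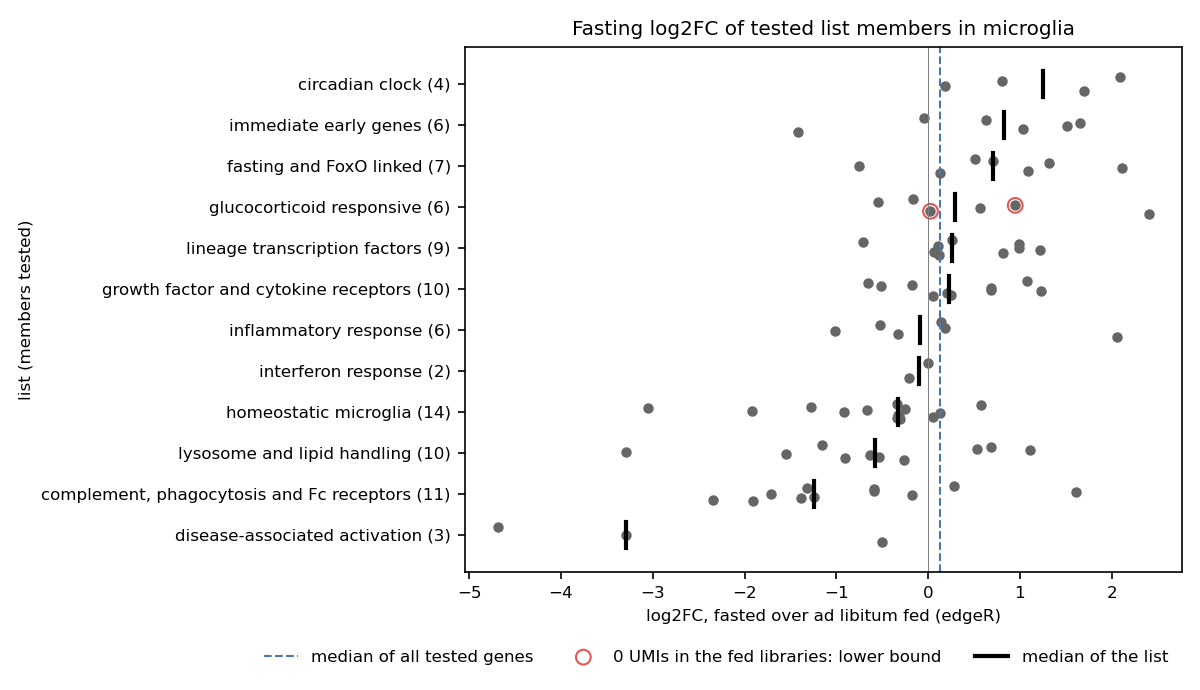
Log2FC (fasted over ad libitum fed, edgeR) of the tested members of 12 gene lists, with the number of members tested, the median of each list as a bar and the median of all tested genes as a dashed line. Circled genes had no fed UMI and are drawn at the lower bound set by 3 UMIs, and no gene shown passed an adjusted p of 0.05.

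Gene lists were described by counts and medians, and 0 members of any list passed the threshold. Nearly all tested members passed the filter on low counts through the fasted libraries, so these counts and medians are descriptions of the members that passed. Beside them stand all tested genes, of which 22% lay above all fed values, 4.5% below and 63.5% above a log2FC of 0. Of the complement, phagocytosis and Fc receptor genes 11 of 18 were tested, 2 of them had a log2FC above 0, for 3 both fasted values lay below all fed ones (4.5% of all tested genes), and the median was -1.25. *C1qa*, *C1qb* (chr4:136880129-136886187, minus strand) and *C1qc* encode the chains of C1q, which starts the classical complement cascade. *C1qb* had 17, 18 and 49 UMIs in the fed libraries, against 86 and 79 in the fasted libraries, or 1029, 818 and 6545 CPM against 373 and 384 CPM, and the groups did not overlap. *C1qa* had 847, 818 and 6945 CPM against 524 and 495 CPM, without overlap, and *C1qc* 1271, 409 and 4274 CPM against 529 and 558 CPM, with overlap. Library 4 holds most of these fed UMIs, and without it the log2FC of *C1qb* was -1.23 and the median of the list -0.38, while without the macrophage-marker nuclei this median was -0.57. *Mertk* had 1029, 864 and 0 CPM in the fed libraries, against 1772 and 1651 CPM in the fasted ones, with a log2FC of 1.61 (standard error 1.53). The 0 is that of library 4 with its 3 nuclei, so this log2FC rests in part on that library.

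Homeostatic genes had a median log2FC of -0.33 over 14 of 15 tested, and 3 of them had a value above 0. For 5 of the 14 both fasted values lay below all fed ones, where 4.5% of all tested genes did. *Cst3* (the protease inhibitor cystatin C) stood at 3510, 1501 and 24442 CPM in the fed libraries, against 745 and 762 CPM in the fasted ones, with no overlap, a log2FC of -3.06 (standard error 2.10). *Ctss* (the lysosomal protease cathepsin S) stood at 605, 818 and 7079 CPM against 715 and 821 CPM, so that without library 4 its log2FC was 0.11. *Tgfbr1*, a receptor of the TGF-β signal that maintains microglia, had the most UMIs of the list over all libraries, 1092, of which 1014 were fasted. It stood at 1815, 1637 and 1603 CPM in the fed libraries, against 2483 and 2142 CPM in the fasted ones. In each fed library *Mef2c* was higher than *Tgfbr1*, with 2239, 1728 and 2671 CPM, against 1759 and 1520 CPM in the fasted ones. *Fcrls* had 847, 546 and 1069 CPM against 381 and 437 CPM. Lineage transcription factors had a median of 0.27 over 9 of 10 tested, and for 4 of the 9 both fasted values lay above all fed ones, where 22% of all tested genes did. This median was 0.32 without library 4 and 0.097 without the macrophage-marker nuclei, a setting in which all tested genes had 0.15. *Ikzf1* (Ikaros) stood at 787, 682 and 0 CPM in the fed libraries, against 901 and 879 CPM in the fasted ones, a log2FC of 0.99 (standard error 1.44), and *Runx1* had one of 0.82. The 0 is that of library 4 with its 3 nuclei, so the log2FC of *Ikzf1* rests in part on that library. Growth factor and cytokine receptors had a median of 0.23 over 10 of 14 tested, of 0.55 without library 4 and of 0.64 over 8 genes without the macrophage-marker nuclei, with *Tgfbr2* at 424, 409 and 401 CPM against 680 and 563 CPM.

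The medians of the disease-associated and of the lysosomal and lipid genes changed sign without library 4. Of the disease-associated genes 3 of 14 were tested, with a median of -3.29 that turned to 0.68 without that library. *Apoe* stood at 545, 182 and 28449 CPM in the fed libraries, against 490 and 573 CPM in the fasted ones, and *Cd74* at 0, 0 and 30720 CPM against 212 and 194 CPM. Lysosomal and lipid genes, 10 of 14 tested, had a median of -0.58 with library 4 and of 0.35 without it. Inflammatory genes, 6 of 18 tested, had medians of -0.09 and 0.07, and interferon-responsive genes, 2 of 14 tested, -0.10 and 0.30. The summed interferon list, mostly of untested genes, stood at 242, 1000.4 and 3206 CPM in the fed libraries, against 377 and 277 CPM in the fasted ones, and the groups overlapped. *Nfkbia* (an inhibitor of NF-κB) had 1 fed and 41 fasted UMIs, a ratio of 4.32 (95% exact counting interval 0.733 to 175), and *Tlr4* (the endotoxin receptor) had 9 and 40 with a log2FC of -1.02 (standard error 1.32).

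The lists linked to fasting, to the clock and to immediate early genes held many members with 0 to 3 fed UMIs, and their medians depend on them. Glucocorticoid-responsive genes, 6 of 14 tested, had a median of 1.49, or 0.30 with the 2 genes at 0 fed UMIs set against the floor, where all tested genes had 0.13. Both fasted values lay above all fed ones for 3 of the 6, among them *Tsc22d3* and *Zbtb16* with no fed UMI, where 22% of all tested genes did. *Zbtb16* had no fed UMI and 13 and 16 fasted ones, from 21 of 264 nuclei (7.95%), a share within the 10.9% that 0 of 32 fed nuclei allows. In oligodendrocyte-like nuclei *Zbtb16* stood at 22.7, 31.9, 0 and 0 CPM in the fed libraries, against 310.0 and 271 CPM in the fasted ones. Over all libraries *Zbtb16*, *Sgk1* and *Tsc22d3* were higher in oligodendrocyte-like nuclei than in microglia, with 226 against 60.1, 272 against 66.3 and 130 against 114 CPM. *Sgk1* (a kinase induced by glucocorticoids) had 2 fed and 30 fasted UMIs, a ratio of 1.58 (95% exact counting interval 0.401 to 13.6). *Nr3c1*, the glucocorticoid receptor itself, had 13 and 94 with a log2FC of -0.54. Genes linked to fasting and FoxO, 7 of 17 tested, had a median of 0.71, and 6 of the 7 were above 0, where 63.5% of all tested genes were. *Igf1r* (the IGF-1 receptor) stood at 60.5, 90.9 and 0 CPM against 260 and 282 CPM, on 3 fed and 118 fasted UMIs, a ratio of 4.14 (95% exact counting interval 1.38 to 20.4). *Insr*, the insulin receptor, had a log2FC of 1.09 and *Sesn1*, a stress-induced inhibitor of mTORC1, one of 1.32. *Pdk4*, *Klf15* and *Ppara* had no microglial UMI. Clock genes, 4 of 12 tested, had a median of 1.25, and *Rorb*, *Rora* and *Arntl* had a higher CPM in astrocyte-like nuclei than in microglia, with 1 fed UMI each of *Rorb* and *Arntl*. Immediate early genes, 6 of 16 tested, had a median of 0.83, and 5 of the 6 had 1 to 3 fed UMIs. For 3 of the 6, *Jun*, *Jund* and *Ier5* with 1 fed UMI each, both fasted values lay above all fed ones, where 22% of all tested genes did. *Junb* was lower in both fasted libraries on 8 fed and 29 fasted UMIs, and *Fos*, which was not tested, had 5 UMIs, all of them fasted. Without library 4 the medians of the glucocorticoid, fasting, clock and immediate early lists were 1.83, 0.49, 1.26 and 0.69, and without the macrophage-marker nuclei, which left 5, 6, 3 and 4 of their genes tested, 0.56, 0.79, 0.47 and 0.59.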

How the data were processed

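NucSeq libraries of pooled hypothalami were made with the 10x 3′ kit (version 3) after sorting of DRAQ5-stained nuclei. The authors mapped reads to mm10 (GRCm38) with Cell Ranger 5.0.1 and an Ensembl 100 annotation without *Gm28040*, and the deposited values are raw UMI counts per gene and barcode in all 6 libraries. Whether intronic reads were counted is not given in the sources used here. The microglial rule and the gene lists were chosen with earlier results of these data known.

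UMIs of the selected nuclei were summed per library and per pool. Levels are CPM of the microglial UMIs of a library, with SDs over libraries. Genes with 10 or more counts in 2 or more libraries were tested in edgeR 4.0.16 (TMM normalization, glmQLFit and glmQLFTest, R 4.3.3), in which the fasted pool is assumed to vary like the fed ones, and DESeq2 1.42.0 was an alternative. The 16 rule genes stayed in the totals and out of the calls. The standard error is the absolute log2FC divided by the square root of the F of the test, in the pairing with the largest p. It is not a fitted error, and p does not follow from it alone. The test was checked on simulated counts. Shares were compared by an exact permutation test over libraries, and intervals are 95% exact binomial (Clopper-Pearson). p-values over libraries measure a spread that is partly technical.

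The genes named were fixed by rule: the 5 rule genes and *Ly86*, the 20 leading genes by ratio (0.5 counts added), up to 10 genes per direction by p among genes whose libraries do not overlap (ribosomal protein and mitochondrial genes being described as groups), up to 4 per list and up to 5 per test of a difference. Other genes are members of the lists, named for their abundance, absence or role, or were chosen after their values had been seen. The labels do not say that same-numbered libraries share more than a number. Their deviations from the group means correlated at 0.04 and 0.02, and those of other-numbered libraries at -0.04 and -0.02. With 2 fasted libraries these values are mirror images by construction, so they cannot decide whether more is shared. Alternatives were the pairings, libraries as samples with and without the replicate block, RLE or no normalization, DESeq2, other filters, other selection limits, thinning to 1000 UMIs and each library left out. Promoter windows are from RefSeq (GRCm38.p6), and all 286 list genes were found by symbol. Some members of the lists are counted in the list totals and not reported here by name.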

Additional observations from a re-analysis of the deposited data

Results flagged for a closer look

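Nuclei with at least 3 marker UMIs that another limit of the rule left out, mostly for neuronal UMIs, are outside the comparisons above. Of these, 17 of 75 fasted nuclei (22.7%, 95% exact binomial interval 13.8 to 33.8%) and 2 of 98 fed ones (2.04%, 0.248 to 7.18%) had a *Ly86* UMI. The share stood out because it was above that of the fed libraries in data that no comparison used.

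Of the barcodes below 1000 UMIs, 6 of 75 in the fasted libraries, all 6 in fasted library 2, met the rest of the rule (8%, 95% exact binomial interval 2.99 to 16.6%), and 14 of 213 in the fed libraries (6.57%, 3.64 to 10.8%), and these intervals overlap.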

How the results depend on the processing

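The count of called genes was 0, and it was also 0 under 17 of 21 alternatives. It was 33 (4 higher and 29 lower) when libraries 1 and 3 were pooled, 32 (5 and 27) with libraries as separate samples, and 22 (7 and 15) with the replicate number as a block, a pairing that the labels do not give. With each library left out in turn it ranged from 0 to 19, the latter without fed library 4. The test of a different response called 1 gene against oligodendrocyte-like nuclei with libraries as separate samples and library as a block, and 1 against astrocyte-like nuclei when libraries 1 and 3 were pooled. The fasted share of microglia was above the fed one in every alternative run, with ratios from 7.71 to 33.2. The median log2FC of all tested genes was 0.19, and 1.49 with no filter on low counts.

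Of 1138 log2FCs of the genes named by rule under alternatives, 1082 kept their direction and their side of the threshold, 36 passed it and 20 changed sign. With the replicate block *Ctss* was at 0.11, *Apoe* at 0.66, *Cd74* at 7.30, *Ptgs1* at -0.010 and *Stat2* at 0.16. With each library left out in turn the log2FC ranged from -2.96 to 0.11 for *Ctss*, -5.45 to 0.68 for *Apoe* and -6.80 to 8.02 for *Cd74*, the upper ends without fed library 4, where *Cd74* has no fed UMI. *Cd74* was called lower when libraries 1 and 3 were pooled (-4.46) and with libraries as separate samples (-5.26), and called higher with the block (edgeR adjusted p = 0.0307). It ranged from -0.74 to 0.99 for *Icam1* and -0.72 to 0.60 for *Stat2*, upper ends without library 2, from -0.13 (without library 2) to 0.43 for *Ddx58*, and from -0.23 (without library 1) to 2.00 for *Clock*. *Stat2* was at 0.17 without library 4 and at 0.38 with no filter on low counts, where *Cd9* was at 0.0087. *Ddx58* was at -0.0096 when libraries 1 and 3 were pooled, -0.0084 with DESeq2, -0.034 with at most 1 UMI in each exclusion sum and -0.020 without nuclei of high totals. *Clock* was at -0.12 without nuclei that carried macrophage or lymphocyte markers. The causes were not tested. With 46004 fed UMIs in 32 nuclei, a gene with no fed UMI can be given only a limit of 65.2 CPM, and a ratio to 1 to 3 fed UMIs only with its wide counting interval.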
